A study of Homo sapiens with 12 samples.

Results

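The cholesterol module described here is a set of 28 genes chosen by name, with earlier results of these data known. It holds 18 enzymes that build cholesterol from acetyl-CoA, 4 genes that control the transcription factor SREBP2, and 6 genes of sterol transport, esterification and receptor turnover. All 28 are among the 23583 features of the count table, and all 28 passed the filter on low counts, which left 16946 features for the tests. The study silenced the circular RNA circASH2 in 2 hepatocellular carcinoma cell lines, Huh7 and HCCLM3, and sequenced mRNA from 12 libraries. Each line had 3 libraries with an siRNA against circASH2 (si-circASH2) and 3 libraries with a negative control siRNA (si-NC). The siRNA sequences, the doses and the time after transfection are not stated in the labels, and whether replicate libraries came from separate cultures is not stated either. The p-values below therefore reflect only how much these libraries vary, possibly for technical reasons, and an exact two-sided permutation test of 3 against 3 libraries could not go below 0.1.

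Cells make cholesterol from acetyl-CoA through mevalonate and farnesyl diphosphate to squalene, close squalene into lanosterol, and trim lanosterol to cholesterol in a series of steps in the endoplasmic reticulum. When sterols in that membrane are low, SCAP carries SREBP2 to the Golgi apparatus, where proteases free the part that enters the nucleus and switches on most genes of the pathway. When sterols are high, INSIG proteins hold SCAP back. Liver cells are a main site of this synthesis and of the uptake and esterification of cholesterol.

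Total counts lay between 29006781 and 30858895 per library, so 3 counts in 1 library were worth 0.0972 to 0.103 CPM. Levels below are CPM, each library's counts scaled to its total and by TMM. A fold change is a log2 difference between group levels fitted by edgeR. Its standard error (SE) was derived as the absolute fold change over the square root of the test's F statistic. A gene passed the test when edgeR's quasi-likelihood test gave a Benjamini-Hochberg adjusted p under 0.05 over all features tested. Values printed with an SE are log2 differences throughout. Of 12 hepatocyte markers, 5 had a mean under 1 CPM in HCCLM3 si-NC libraries and GPC3 was at 0 in each of them, whereas none was under 1 CPM in Huh7. The summed level of these 12 markers was 34375 to 34574 CPM in Huh7 si-NC, 32344 to 33208 CPM in Huh7 si-circASH2, 5443 to 5602 CPM in HCCLM3 si-NC and 5577 to 5700 CPM in HCCLM3 si-circASH2. Of the 12, 10 were lower and 2 higher in HCCLM3 si-NC than in Huh7 si-NC (43.6% and 41.6% of all features). Their median log2 difference was -10.7, and ALB had a mean of 9866 CPM in Huh7 si-NC and 3.24 CPM in HCCLM3 si-NC. The sum therefore does not stand for each marker. The 6 fibroblast markers summed to 34.3 to 40.1 CPM in Huh7 si-NC against 56.7 to 57.7 CPM with si-circASH2, and to 35.6 to 37.9 against 48.9 to 53.5 CPM in HCCLM3. Endothelial markers (5 genes) summed to at most 27.5 CPM and leukocyte markers (6 genes) to between 143 and 419 CPM. The part of these differences in the results below was not tested. No feature of the table was matched to circASH2, so the loss of the circle is not checked here, and in bulk RNA fewer cells of a kind and less RNA per cell cannot be told apart.

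SREBP2 binds short sterol response elements in promoters, usually beside sites of the factors NF-Y (CCAAT) and Sp1 (GGGCGG). Stretches of 60 bases around the CCAAT match nearest upstream of the start (for SREBF2, the TCACNCCAC match) are shown for the members whose level fell in both lines and by at least 0.4 (before rounding) on the log2 scale in 1 of them, and for SREBF2, which encodes SREBP2 itself. SQLE had no window in the table, and CYP51A1 and NPC1 had no CCAAT upstream of their starts. The stretches are from RefSeq on GRCh38.p14 and read 5′ to 3′ in the gene's direction. Capitals mark CCAAT, its reverse complement ATTGG and, in SREBF2, the letters of TCACNCCAC.
HMGCS1: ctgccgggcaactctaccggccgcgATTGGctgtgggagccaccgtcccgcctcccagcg
MVK: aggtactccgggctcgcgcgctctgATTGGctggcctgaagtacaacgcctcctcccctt
IDI1: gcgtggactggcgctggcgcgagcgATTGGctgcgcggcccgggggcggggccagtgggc
MSMO1: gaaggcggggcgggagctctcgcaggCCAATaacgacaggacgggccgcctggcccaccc
NSDHL: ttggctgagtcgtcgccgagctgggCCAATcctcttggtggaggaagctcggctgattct
HSD17B7: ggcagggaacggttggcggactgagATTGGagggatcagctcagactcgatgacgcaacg
STARD4: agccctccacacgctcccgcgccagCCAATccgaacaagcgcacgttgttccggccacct
SREBF2: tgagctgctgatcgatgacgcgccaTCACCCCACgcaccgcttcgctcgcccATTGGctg
These stretches lie at chr5:43313478-43313537 on the minus strand for HMGCS1, chr12:109573723-109573782 on the plus strand for MVK and chr10:1048939-1048998 on the minus strand for IDI1. Those of MSMO1 and NSDHL are chr4:165327609-165327668 and chrX:152830954-152831013, both on the plus strand. HSD17B7 has its stretch at chr1:162790625-162790684 on the plus strand, STARD4 at chr5:111512631-111512690 on the minus strand, and SREBF2 at chr22:41832947-41833006 on the plus strand.

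Windows from 250 bases before to 50 bases after a start were read on both strands for 24 of the 28 members. CCAAT was found in 19 of these 24 members (79.2%), against 43% of the 11101 tested genes with a window and 34.6% of all 35116 windows. MVK and NSDHL each had 5 matches in their window, and MSMO1 had 4. GGGCGG was found in 23 of the 24 members (95.8%), against 74.3% of the tested genes. The letters TCACNCCAC, a core of the sterol response element, were present in 1 member, SREBF2 (4.17%), against 1.52% of the tested genes. CYP51A1, PMVK, SCAP, INSIG2 and NPC1 had no CCAAT in their windows, which says only that these letters are not there. These matches describe the sequence and are not tests of binding.

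In both lines more members of the module were lower than higher with si-circASH2. The members were chosen with earlier results of these data known. Setting them beside all features is therefore a description and no independent test. In Huh7, 16 of 28 members passed the test, while 31.4% of all features tested did. Of these, 15 fell and 1 rose, while 15.1% of all features fell and 16.3% rose. In HCCLM3, 20 of 28 passed, while 30.6% of all features did. Of these, 19 fell and 1 rose, while 15.5% of all features fell and 15.1% rose. The median log2 fold change over the 28 members was -0.24 in Huh7 and -0.35 in HCCLM3, beside 0.01 and 0 over all features tested, and -0.24 and -0.35 without SOAT2, which was near the floor in HCCLM3. The same 14 members fell in both lines (5.71% of all features tested did so), namely HMGCS1, MVK, IDI1, SQLE, CYP51A1, MSMO1, NSDHL, HSD17B7, EBP, DHCR7, SREBF2, INSIG1, STARD4 and NPC1. NPC2 rose in both. All 3 si-circASH2 libraries lay below all 3 si-NC libraries for 18 members in Huh7 (20.3% of all features did so) and for 20 in HCCLM3 (21.9% of all features). They lay above for NPC2 in Huh7 (1 member, beside 22.4% of all features) and for PMVK and NPC2 in HCCLM3 (2 members, beside 21.8%).

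The 18 enzymes together made up 4965 ± 72.2 CPM in Huh7 si-NC libraries and 4226 ± 70.6 CPM with si-circASH2 (mean ± SD, n = 3), which is 85.1% of the control sum. In HCCLM3 the sum was 2024 ± 25.8 CPM with si-NC and 1530 ± 17.3 CPM with si-circASH2, or 75.6% of the control. Control and knockdown libraries did not overlap in either line. These sums are not scaled by gene length, so highly counted genes weigh most and the sums do not stand for each enzyme. HMGCS1 alone had a mean of 1386 CPM in Huh7 si-NC and 1174 CPM with si-circASH2. In HCCLM3 it had 115 and 82.5 CPM. Among the enzymes 11 fell in Huh7 and 14 fell in HCCLM3 (15.1% and 15.5% of all features). None rose in either line, while 16.3% and 15.1% of all features did. The median log2 fold change of the 18 was -0.24 in Huh7 and -0.37 in HCCLM3.

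**Figure D1:**
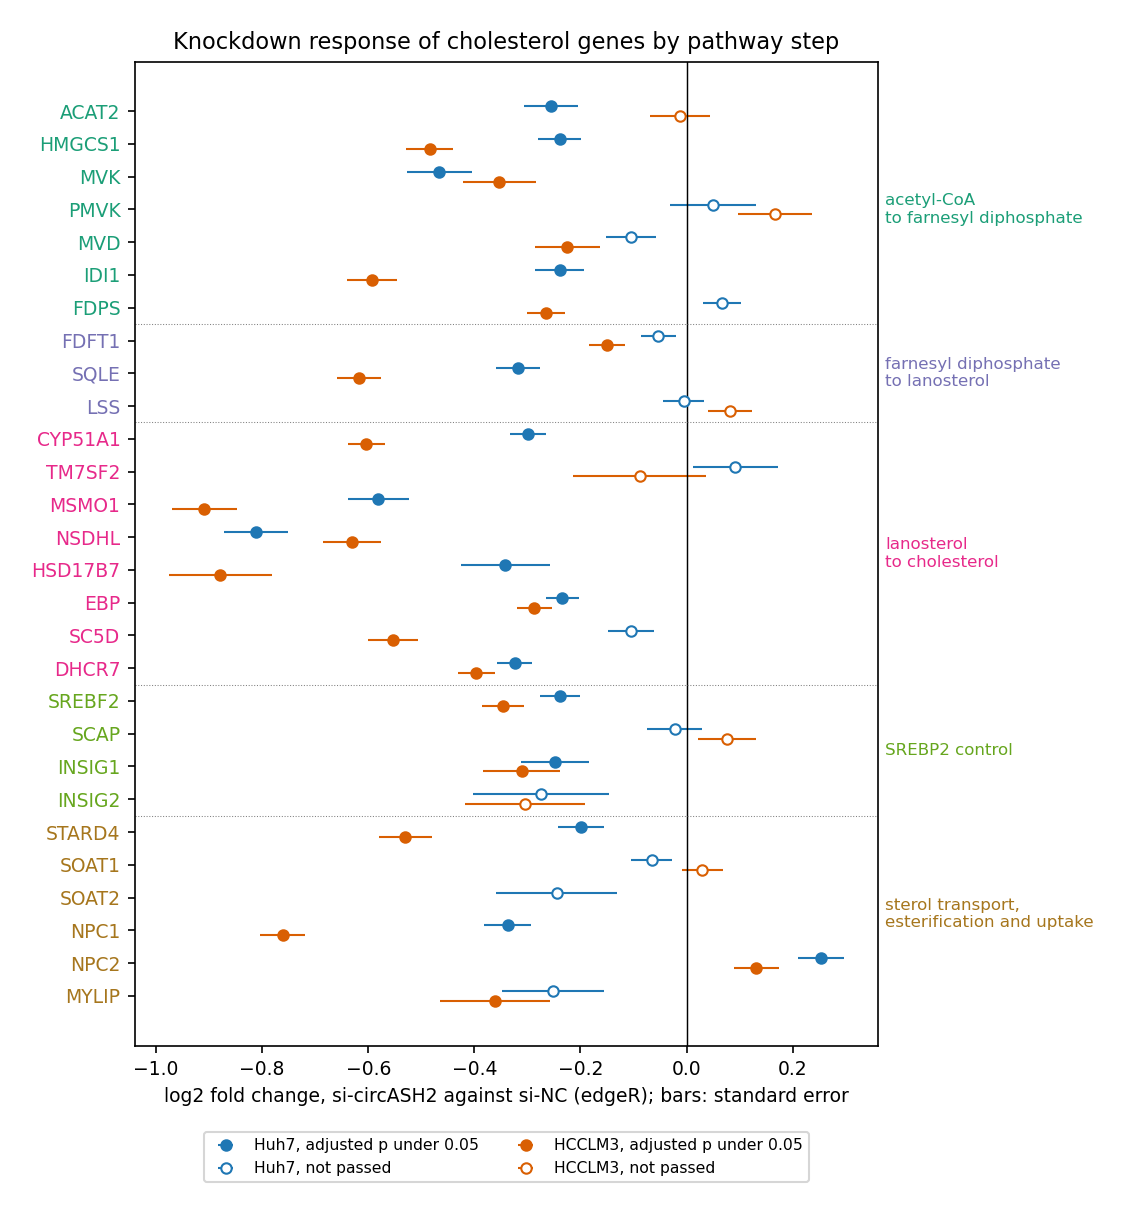
Log2 fold change of each of the 28 members (si-circASH2 minus si-NC, edgeR) in Huh7 and in HCCLM3 with its standard error, in order of pathway step. Filled points passed the test, 15 lower and 1 higher in Huh7 and 19 lower and 1 higher in HCCLM3, and most points lie left of 0 (SOAT2 in HCCLM3 is not drawn).

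The first steps lead from acetyl-CoA to farnesyl diphosphate, and 4 of their 7 enzymes fell in Huh7 and 5 in HCCLM3 (15.1% and 15.5% of all features). HMGCS1, the cytosolic synthase that makes the HMG-CoA of the mevalonate pathway, had the highest level per length of all members in Huh7 si-NC libraries. Its level was 1369, 1363 and 1426 CPM in the Huh7 si-NC libraries and 1106, 1201 and 1216 CPM with si-circASH2. In HCCLM3 it was 119, 119 and 108 CPM with si-NC and 86.7, 81.1 and 79.7 CPM with si-circASH2. No knockdown library of either line reached the lowest control library. The log2 fold change was -0.24 (SE 0.04, edgeR adjusted p = 8.64e-05) in Huh7 and -0.48 (SE 0.04, edgeR adjusted p = 1.96e-08) in HCCLM3. HMGCS1 thus fell by 15.3% in Huh7 and fell by 28.5% in HCCLM3.

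ACAT2, the cytosolic thiolase that joins acetyl-CoA units at the start of the pathway, fell in Huh7 and did not pass the test in HCCLM3. Its mean was 307 ± 6.30 CPM with si-NC and 257 ± 18.7 CPM with si-circASH2 in Huh7, a log2 fold change of -0.26 (SE 0.05, edgeR adjusted p = 4.93e-04). In HCCLM3 the means were 53.2 ± 4.21 CPM and 52.8 ± 1.94 CPM with overlapping libraries, and the log2 fold change was -0.01 (SE 0.06, edgeR adjusted p = 0.933). ACAT2 overlaps TCP1 and SOD2 on the opposite strand, and since the use of strand in counting is not given, its reads are uncertain.

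MVK phosphorylates mevalonate. Its level was 52.9, 56.0 and 58.9 CPM in Huh7 si-NC and 40.7, 38.8 and 42.1 CPM in Huh7 si-circASH2 libraries, and 23.2, 24.3 and 24.5 against 16.8, 20.3 and 19.3 CPM in HCCLM3. The groups did not overlap in either line, and the log2 fold change was -0.47 (SE 0.06, edgeR adjusted p = 2.37e-06) in Huh7 and -0.35 (SE 0.07, edgeR adjusted p = 3.42e-04) in HCCLM3. MVK overlaps MMAB on the opposite strand, so that its reads carry the same uncertainty. The kinase of the next step, PMVK, did not pass the test, with a log2 fold change of 0.05 (SE 0.08, edgeR adjusted p = 0.709) in Huh7 and 0.17 (SE 0.07, edgeR adjusted p = 0.0764) in HCCLM3. PMVK was also the enzyme of these first steps that was higher in HCCLM3 si-NC (31.7 ± 0.838 CPM) than in Huh7 si-NC (14.1 ± 1.22 CPM). It passed the HCCLM3 test when only the 6 libraries of that line were fitted (edgeR adjusted p = 0.0144).

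MVD, the decarboxylase that makes isopentenyl diphosphate, had 22.0 ± 0.487 CPM in HCCLM3 si-NC and 18.8 ± 1.57 CPM with si-circASH2, a log2 fold change of -0.22 (SE 0.06, edgeR adjusted p = 0.00689). That call was lost without si-circASH2 replicate 1 of HCCLM3 (edgeR adjusted p = 0.0585). In Huh7 the value was -0.11 (SE 0.05, edgeR adjusted p = 0.0972), and it passed without si-NC replicate 1 of Huh7 (edgeR adjusted p = 0.0481) and with the 6 Huh7 libraries alone (edgeR adjusted p = 0.0424). IDI1, the isomerase that supplies the partner for the next condensations, was measured at 222, 209 and 214 CPM in Huh7 si-NC and 176, 193 and 176 CPM in Huh7 si-circASH2. The HCCLM3 libraries gave 124, 122 and 121 CPM with si-NC and 87.7, 76.1 and 79.6 CPM with si-circASH2. The drop in IDI1 separated all libraries in both lines and was -0.24 (SE 0.05, edgeR adjusted p = 2.68e-04) in Huh7 and -0.59 (SE 0.05, edgeR adjusted p = 1.38e-09) in HCCLM3 on the log2 scale.

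FDPS makes farnesyl diphosphate, the branch point to sterols and to other isoprenoids. In Huh7 its mean was 238 ± 2.84 CPM with si-NC and 249 ± 10.1 CPM with si-circASH2, which did not pass the test (log2 fold change 0.07, SE 0.04, edgeR adjusted p = 0.178). In HCCLM3 it fell from 237 ± 6.31 CPM to 197 ± 4.89 CPM, a log2 fold change of -0.26 (SE 0.04, edgeR adjusted p = 4.68e-06). The genome annotation lists 8 pseudogenes of FDPS, so that some of its reads may be shared.

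Of the 3 enzymes that turn farnesyl diphosphate into lanosterol, 1 fell in Huh7 and 2 in HCCLM3 (15.1% and 15.5% of all features). SQLE, the squalene epoxidase that adds the first oxygen and is a rate-limiting step of the sterol branch, fell in both. SQLE levels were 189.6, 195 and 206 CPM in Huh7 si-NC, 154, 166 and 154 CPM in Huh7 si-circASH2, 278, 284 and 262 CPM in HCCLM3 si-NC and 183, 178 and 177 CPM in HCCLM3 si-circASH2. HCCLM3 control libraries were thus the highest of the 12, and HCCLM3 knockdown libraries overlapped none of them. The log2 fold change was -0.32 (SE 0.04, edgeR adjusted p = 2.31e-06) in Huh7 and -0.62 (SE 0.04, edgeR adjusted p = 5.93e-11) in HCCLM3. FDFT1, which makes squalene, fell by 9.84% in HCCLM3 (-0.15, SE 0.03, edgeR adjusted p = 0.00138), and with limma on log2 FPKM that call was lost (limma adjusted p 0.0569 to 0.0897). In Huh7 FDFT1 had -0.05 (SE 0.03, edgeR adjusted p = 0.249). LSS, which closes the ring to lanosterol, did not pass in either line, with -0.01 in Huh7 and 0.08 in HCCLM3 (edgeR adjusted p = 0.961 and 0.151).

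The steps from lanosterol to cholesterol held the largest falls among the enzymes. Of the 8 enzymes, 6 fell in Huh7 and 7 in HCCLM3 (15.1% and 15.5% of all features), and TM7SF2 passed in neither line. CYP51A1, the cytochrome P450 that removes the first methyl group of lanosterol, had 393, 393 and 397 CPM in Huh7 si-NC and 316, 317 and 329 CPM with si-circASH2. In HCCLM3 it had 155, 159 and 147 CPM and 101, 102 and 99.9 CPM. Each group was tight, and control and knockdown libraries did not overlap. The log2 fold change of CYP51A1 was -0.30 (SE 0.03, edgeR adjusted p = 3.07e-07) in Huh7 and -0.60 (SE 0.04, edgeR adjusted p = 6.43e-12) in HCCLM3. The annotation lists 3 pseudogenes of CYP51A1.

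MSMO1, the C4 methyl sterol oxidase, and NSDHL, the dehydrogenase that acts after it, fell most among the enzymes when both lines are read together. MSMO1 measured 359.6, 333 and 339 CPM in Huh7 si-NC and 232, 209 and 249 CPM in Huh7 si-circASH2. In HCCLM3 the values were 173, 172 and 164 CPM and 95.5, 92.5 and 82.9 CPM. The knockdown libraries thus fell by 33.1% in Huh7 and fell by 46.7% in HCCLM3, with log2 fold changes of -0.58 (SE 0.06, edgeR adjusted p = 9.68e-07) and -0.91 (SE 0.06, edgeR adjusted p = 8.57e-09). For NSDHL the libraries read 46.4, 43.9 and 45.2 CPM in Huh7 si-NC and 27.1, 27.4 and 22.7 CPM in Huh7 si-circASH2. They read 81.1, 76.9 and 78.4 CPM in HCCLM3 si-NC and 50.5, 49.8 and 52.4 CPM in HCCLM3 si-circASH2. NSDHL had the largest fall of any member in Huh7, -0.81 (SE 0.06, edgeR adjusted p = 3.22e-10), and in HCCLM3 it had -0.63 (SE 0.05, edgeR adjusted p = 4.81e-09). No library of a knockdown group reached a control library of its line for either gene.

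HSD17B7, the ketoreductase of the same C4 demethylation complex, also fell in both lines. Its level was 20.8, 21.9 and 21.9 CPM in Huh7 si-NC and 17.2, 17.1 and 16.7 CPM in Huh7 si-circASH2, and 12.1, 9.63 and 11.9 against 6.04, 5.67 and 6.58 CPM in HCCLM3. The groups did not overlap, and HSD17B7 fell by 21.1% in Huh7 and fell by 45.6% in HCCLM3. On the log2 scale this was -0.34 (SE 0.08, edgeR adjusted p = 0.00277) and -0.88 (SE 0.10, edgeR adjusted p = 2.08e-07). Its 2 annotated pseudogenes make the division of its reads uncertain.

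SC5D, the desaturase near the end of the pathway, had 152, 151 and 144 CPM in Huh7 si-NC and 129.8, 139 and 147 CPM in Huh7 si-circASH2, groups that overlapped. In HCCLM3 it had 78.8, 75.7 and 73.9 CPM with si-NC and 52.3, 50.4 and 52.9 CPM with si-circASH2, with no overlap. SC5D did not pass in Huh7 (-0.10, SE 0.04, edgeR adjusted p = 0.0741) and fell in HCCLM3 (-0.55, SE 0.05, edgeR adjusted p = 3.03e-09). It passed in Huh7 without si-circASH2 replicate 3 of that line (edgeR adjusted p = 0.0192), without the filter on low counts (edgeR adjusted p = 0.0481) and with the 6 Huh7 libraries alone (edgeR adjusted p = 0.0443).

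EBP, the sterol isomerase, and DHCR7, which reduces the last intermediate to cholesterol, ranked just after HMGCS1 in level per length in Huh7 si-NC libraries and fell in both lines. EBP had 373 ± 6.37 CPM in Huh7 si-NC and 317 ± 3.78 CPM with si-circASH2, and 155 ± 0.872 CPM against 127 ± 1.98 CPM in HCCLM3. DHCR7 had 525 ± 8.72 CPM and 419 ± 11.7 CPM in Huh7, and 173 ± 1.06 CPM and 131 ± 4.16 CPM in HCCLM3. The falls of EBP were -0.23 (SE 0.03, edgeR adjusted p = 3.24e-06) and -0.29 (SE 0.03, edgeR adjusted p = 3.00e-07), and those of DHCR7 were -0.32 (SE 0.03, edgeR adjusted p = 5.81e-08) and -0.40 (SE 0.03, edgeR adjusted p = 4.69e-09), in Huh7 and HCCLM3 in that order. TM7SF2, a sterol reductase whose reaction other enzymes can also perform, had 0.09 in Huh7 and -0.09 in HCCLM3 (edgeR adjusted p = 0.433 and 0.668).

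**Figure D2:**
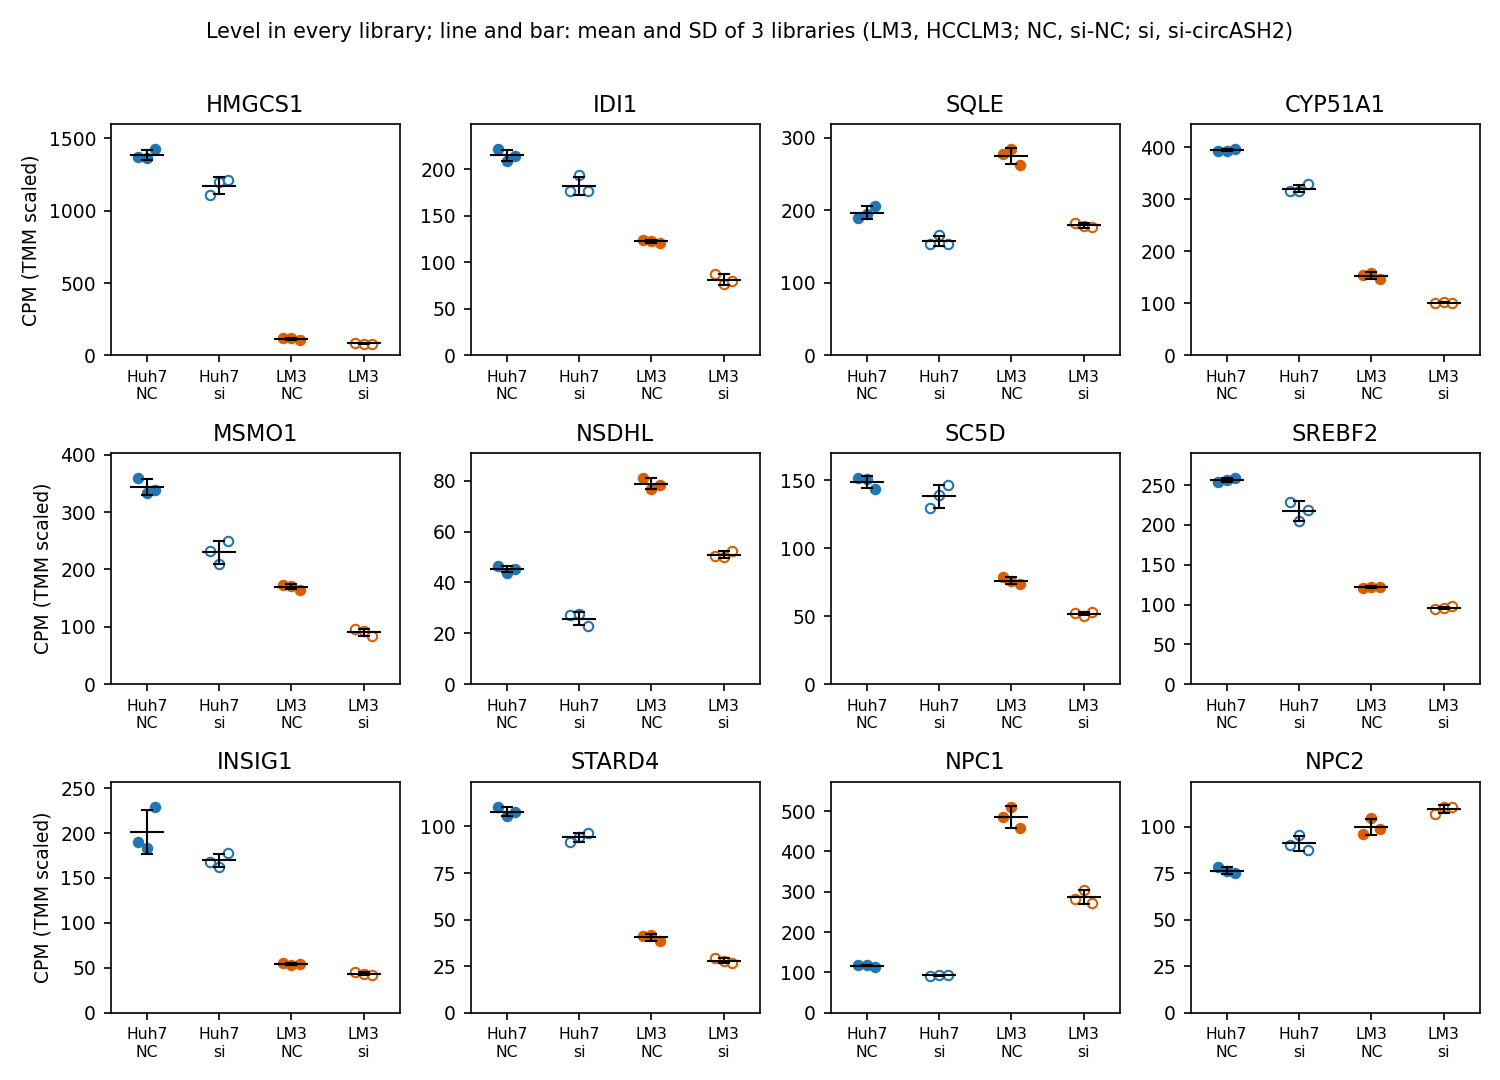
Level in CPM of 12 members in each of the 12 libraries, by line and siRNA, with 1 point per library and lines for the group mean and SD (n = 3). For MSMO1, NSDHL, SQLE and NPC1 every si-circASH2 library lies below every si-NC library of its line.

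Among the 4 control genes, SREBF2 and INSIG1 fell in both lines (5.71% of all features did so) and SCAP and INSIG2 passed in neither. SREBF2 measured 255, 256 and 259 CPM in Huh7 si-NC and 229, 204 and 219 CPM in Huh7 si-circASH2. In HCCLM3 the libraries gave 121, 122 and 122 CPM with si-NC and 94.6, 95.1 and 97.6 CPM with si-circASH2. The groups did not overlap in either line, and SREBF2 fell by 15.3% in Huh7 (-0.24, SE 0.04, edgeR adjusted p = 3.09e-05) and fell by 21.3% in HCCLM3 (-0.35, SE 0.04, edgeR adjusted p = 3.50e-07). SREBF2 has an annotated antisense gene, and its reads are uncertain to that extent. These counts measure the transcript, and the cleaved protein was not measured.

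SCAP, the escort of SREBP2, had 132, 131 and 136 CPM in Huh7 si-NC and 144, 123 and 127 CPM in Huh7 si-circASH2, and 78.4, 73.7 and 75.2 against 74.4, 80.8 and 84.3 CPM in HCCLM3. Its control and knockdown libraries overlapped in both lines, with log2 differences of -0.02 (SE 0.05, edgeR adjusted p = 0.813) and 0.08 (SE 0.05, edgeR adjusted p = 0.325). Leaving out single libraries moved the SCAP value in Huh7 between -0.09 and 0.02. INSIG1, the sterol-sensitive anchor of SCAP and itself a target gene of SREBP2, had 191, 184 and 229 CPM in Huh7 si-NC and 168, 163 and 178 CPM in Huh7 si-circASH2. In HCCLM3 it had 55.2, 52.7 and 54.3 CPM with si-NC and 45.5, 43.0 and 42.3 CPM with si-circASH2. Replicate 3 was the highest INSIG1 library of Huh7 si-NC, and the groups did not overlap in either line. INSIG1 fell by 0.25 on the log2 scale in Huh7 (SE 0.06, edgeR adjusted p = 0.00760) and fell by 0.31 in HCCLM3 (SE 0.07, edgeR adjusted p = 0.00355). Without si-NC replicate 3 the Huh7 value of INSIG1 was -0.14 (edgeR adjusted p = 0.0214), and its call was lost when only the 6 libraries of Huh7 were fitted (edgeR adjusted p = 0.0800).

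INSIG2, the second anchor, which is not a classical SREBP2 target, had 13.5, 13.8 and 19.9 CPM in Huh7 si-NC and 12.2, 12.9 and 13.9 CPM in Huh7 si-circASH2. In HCCLM3 it had 31.0, 31.6 and 37.0 CPM and 27.3, 26.1 and 27.3 CPM. Replicate 3 was again the highest si-NC library, here in both lines, and the groups overlapped in Huh7 but not in HCCLM3. INSIG2 did not pass the test, with -0.27 (SE 0.13, edgeR adjusted p = 0.124) in Huh7 and -0.30 (SE 0.11, edgeR adjusted p = 0.0558) in HCCLM3. The Huh7 value rested on single si-NC libraries: without si-NC replicate 3 it was -0.07 (edgeR adjusted p = 0.645), whereas without si-NC replicate 1 it was -0.37 and passed (edgeR adjusted p = 0.0339). In HCCLM3 it passed with DESeq2 (adjusted p = 0.0223) and with the 6 HCCLM3 libraries alone (edgeR adjusted p = 0.000317).

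Of the 6 genes of transport, esterification and receptor turnover, 2 fell and 1 rose in Huh7, and 3 fell and 1 rose in HCCLM3. Of all features, 15.1% fell and 16.3% rose in Huh7, and 15.5% fell and 15.1% rose in HCCLM3. NPC1, the membrane protein that exports cholesterol from late endosomes and lysosomes, had 118, 118 and 115 CPM in Huh7 si-NC and 91.2, 92.8 and 93.3 CPM in Huh7 si-circASH2. In HCCLM3 it had 487, 511 and 458 CPM in si-NC and 281, 305 and 272 CPM in si-circASH2 libraries. The HCCLM3 knockdown libraries lay below all HCCLM3 control libraries and above all Huh7 libraries. NPC1 fell by 20.8% in Huh7 (-0.34, SE 0.04, edgeR adjusted p = 2.43e-06) and fell by 41.0% in HCCLM3 (-0.76, SE 0.04, edgeR adjusted p = 2.20e-12). NPC1 overlaps RMC1 on the opposite strand.

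NPC2, the soluble lysosomal partner that hands cholesterol to NPC1, moved the other way. NPC2 overlaps ISCA2 and RAP1AP on the opposite strand, so that its reads are uncertain too. Its level was 78.3, 76.0 and 75.00 CPM in Huh7 si-NC and 90.2, 95.7 and 87.4 CPM in Huh7 si-circASH2, and 96.3, 105 and 99.0 against 107, 111 and 111 CPM in HCCLM3. The groups did not overlap, and NPC2 rose in Huh7 (0.25, SE 0.04, edgeR adjusted p = 7.32e-05) and in HCCLM3 (0.13, SE 0.04, edgeR adjusted p = 0.0211). The HCCLM3 call was lost without si-NC replicate 1 (edgeR adjusted p = 0.133), si-NC replicate 3 (0.0695), si-circASH2 replicate 2 (0.0579) or si-circASH2 replicate 3 (0.0741) of that line.

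STARD4, a soluble protein that moves cholesterol between membranes, measured 111, 105 and 108 CPM in Huh7 si-NC and 91.9, 94.1 and 96.4 CPM in Huh7 si-circASH2. In HCCLM3 it measured 41.3, 41.6 and 38.3 CPM and 29.5, 27.7 and 26.8 CPM. The groups did not overlap in either line, and the falls were -0.20 (SE 0.04, edgeR adjusted p = 0.00100) in Huh7 and -0.53 (SE 0.05, edgeR adjusted p = 1.89e-08) in HCCLM3. The Huh7 call was lost with limma on log2(FPKM + 0.1) over all genes above 0 (limma adjusted p = 0.0512). STARD4 also has an annotated antisense gene.

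SOAT1 and SOAT2 make cholesteryl esters for storage and secretion, and neither passed the knockdown test. SOAT1 had 129, 129 and 122 CPM in Huh7 si-NC and 118, 123 and 122 CPM in Huh7 si-circASH2, and 151, 157 and 149 against 151, 158 and 157 CPM in HCCLM3. The differences were -0.07 (SE 0.04, edgeR adjusted p = 0.214) and 0.03 (SE 0.04, edgeR adjusted p = 0.630), and control and knockdown libraries overlapped in both lines. SOAT2 had 32.5, 35.1 and 35.6 CPM in Huh7 si-NC and 28.9, 27.9 and 30.4 CPM in Huh7 si-circASH2, which did not overlap but did not pass (-0.24, SE 0.11, edgeR adjusted p = 0.120). It passed with DESeq2 (adjusted p = 0.0128), with limma on log2(FPKM + 1) (adjusted p = 0.00558) and with the 6 Huh7 libraries alone (edgeR adjusted p = 0.00216). HCCLM3 held 6 counts of SOAT2 over its 3 si-NC libraries and 3 counts over its 3 si-circASH2 libraries, too few for a fold change by knockdown.

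MYLIP, the ubiquitin ligase that marks lipoprotein receptors for degradation, had 18.3, 18.6 and 16.6 CPM in Huh7 si-NC and 15.95, 13.3 and 15.7 CPM in Huh7 si-circASH2. In HCCLM3 it had 11.8, 12.5 and 10.3 CPM and 9.70, 9.39 and 7.76 CPM. The groups did not overlap, and MYLIP fell in HCCLM3 (-0.36, SE 0.10, edgeR adjusted p = 0.0102) but stayed just outside the threshold in Huh7 (-0.25, SE 0.10, edgeR adjusted p = 0.0504). The HCCLM3 call was lost without si-NC replicate 2 (edgeR adjusted p = 0.0608), without si-circASH2 replicate 3 (edgeR adjusted p = 0.0722) and with limma on log2(FPKM + 0.1) (adjusted p = 0.0513, and 0.0708 over all genes above 0). MYLIP passed in Huh7 without si-NC replicate 3 (edgeR adjusted p = 0.0381) or si-circASH2 replicate 1 (edgeR adjusted p = 0.0443) of Huh7, without the low-count filter (edgeR adjusted p = 0.0384) and with the 6 Huh7 libraries alone (edgeR adjusted p = 0.0170).

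The size of the effect was compared between the lines with an interaction term, the knockdown effect in HCCLM3 minus that in Huh7. It passed for 11 members, beside 20.9% of all features tested. The difference was negative for 10 members and positive for 1, beside 11.3% and 9.6% of all features, and the median over the 28 members was -0.11 beside -0.02 over all features. The 10 members comprise 8 synthesis enzymes (HMGCS1, IDI1, FDPS, SQLE, CYP51A1, MSMO1, HSD17B7 and SC5D) and 2 transport genes (STARD4 and NPC1). The difference was -0.54 (SE 0.13, edgeR adjusted p = 0.00372) for HSD17B7, -0.45 (SE 0.06, edgeR adjusted p = 1.44e-05) for SC5D and -0.42 (SE 0.06, edgeR adjusted p = 1.66e-05) for NPC1. For CYP51A1 it was -0.30 (SE 0.05, edgeR adjusted p = 6.86e-05), for FDPS -0.33 (SE 0.05, edgeR adjusted p = 4.16e-05) and for IDI1 -0.35 (SE 0.07, edgeR adjusted p = 3.69e-04). ACAT2 went the other way, with 0.24 (SE 0.08, edgeR adjusted p = 0.0261).

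The test of the difference did not pass for SREBF2 (-0.11, SE 0.05, edgeR adjusted p = 0.185), NSDHL (0.18, SE 0.08, edgeR adjusted p = 0.125), MVK (0.11, SE 0.09, edgeR adjusted p = 0.445) or DHCR7 (-0.07, SE 0.05, edgeR adjusted p = 0.322). SREBF2 passed without si-circASH2 replicate 2 of Huh7 (edgeR adjusted p = 0.0422). The ACAT2 call was lost without Huh7 si-NC replicate 1 (edgeR adjusted p = 0.0596) or 3 (0.0516), Huh7 si-circASH2 replicate 1 (0.0676) or 3 (0.0709), HCCLM3 si-NC replicate 2 (0.0802), and HCCLM3 si-circASH2 replicate 1 (0.0819) or 3 (0.0827), and with limma on log2 FPKM (adjusted p 0.0713 to 0.127). With limma the calls of HMGCS1 (adjusted p 0.0843 to 0.115), MSMO1 (0.0507 to 0.0803) and STARD4 (0.0969 to 0.125) were lost too. Between them these members leave 7 interaction calls with limma, against 11 with edgeR. Calls over all features were also fewer with limma, 2872 or 3497 of 16946 and 2658 of 21377, against 3538 of 16946 with edgeR.

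**Figure D3:**
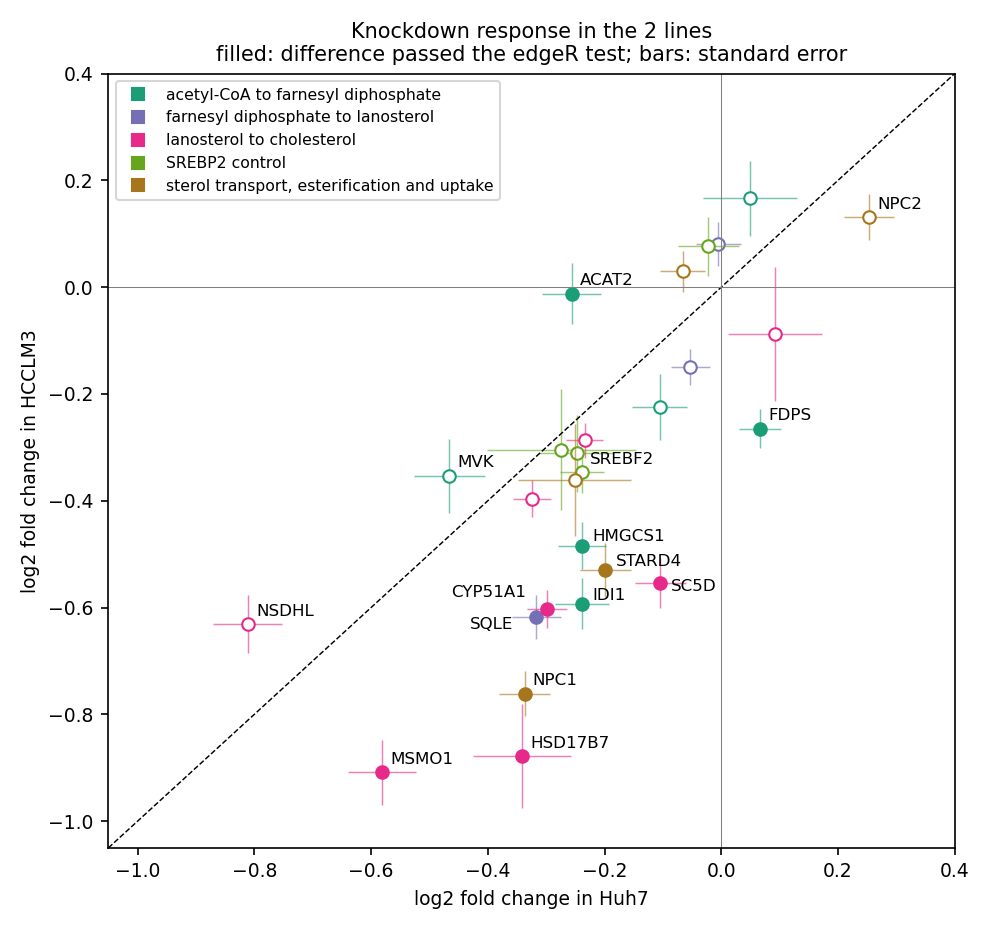
Log2 fold change in HCCLM3 (vertical axis) against that in Huh7 (horizontal axis) for 27 members (SOAT2 is not drawn), with standard errors, the dashed line of equal effects and colours by pathway step. Filled points passed the interaction test: the 10 members with a negative interaction lie below the line and ACAT2 lies above it.

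The lines also differed before the knockdown. In si-NC libraries 27 of 28 members passed the test, as did 85.2% of all features. Of these, 20 members were lower and 7 higher in HCCLM3 than in Huh7, while 43.6% of all features tested were lower and 41.6% higher. The median log2 difference was -0.99 over the members, beside -0.04 over all features. HMGCS1 showed the widest gap among members well above the floor of 3 counts in both lines, at 0.0833 of the Huh7 level (log2 difference -3.59, SE 0.05, edgeR adjusted p = 7.39e-26). Among the 18 enzymes 14 were lower and 3 higher (PMVK, SQLE and NSDHL). The CPM sum of the 18 in HCCLM3 si-NC was 40.8% of that in Huh7 si-NC. HMGCS1 weighed heavily in this, with a mean of 115 CPM in HCCLM3 si-NC and 1386 CPM in Huh7 si-NC. FDPS was the 1 member that did not differ by the test (-0.00, SE 0.04, edgeR adjusted p = 0.960).

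Among the transport and control genes, NPC1 was 4.15-fold higher in HCCLM3 (2.05, SE 0.04, edgeR adjusted p = 1.58e-22) and INSIG2 2.11-fold higher (1.08, SE 0.12, edgeR adjusted p = 5.21e-07), while INSIG1 was at 0.269 of the Huh7 level (-1.90, SE 0.07, edgeR adjusted p = 9.45e-14). SREBF2 was lower in HCCLM3 (-1.08, SE 0.04, edgeR adjusted p = 5.16e-18). SOAT2 stood furthest apart, with 3129 counts over the 3 Huh7 si-NC libraries and 6 over the 3 HCCLM3 si-NC libraries. Those 6 counts all came from 1 library. SOAT1 was slightly higher in HCCLM3 (0.26, SE 0.04, edgeR adjusted p = 1.08e-06).

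Levels can be set between genes only per length, as FPKM. In Huh7 si-NC libraries the highest mean FPKM was that of HMGCS1 (352 ± 11.9), followed by EBP (202 ± 3.99), DHCR7 (182 ± 3.47) and FDPS (169 ± 1.19). The lowest were INSIG2 (5.54 ± 1.18), MYLIP (6.31 ± 0.229) and PMVK (9.74 ± 0.771). In HCCLM3 si-NC libraries FDPS led (163 ± 2.29), then FDFT1 (109 ± 5.004), NPC1 (92.3 ± 4.34) and NPC2 (85.8 ± 2.34). HMGCS1 stood at 29.5 ± 1.45 there, and TM7SF2 at 2.17 ± 0.468. The order of the pathway's enzymes per length therefore differed between the lines, with no test between genes.

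**Figure D4:**
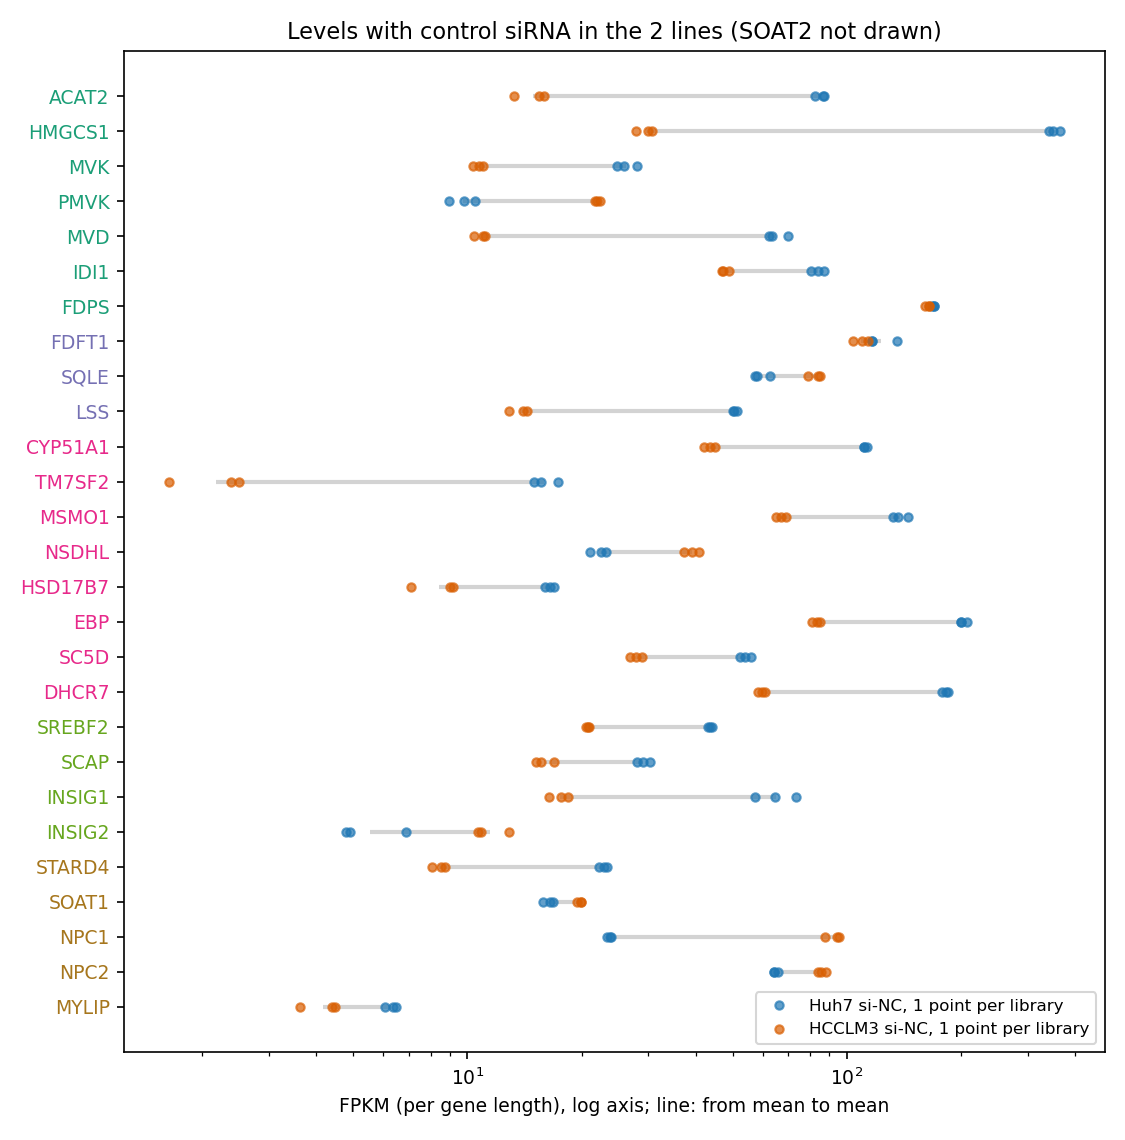
FPKM of 27 members in the si-NC libraries of Huh7 and HCCLM3 on a log axis, with 1 point per library and a grey line between the line means (SOAT2 is not drawn). HMGCS1 leads in Huh7 and FDPS in HCCLM3.

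Genes around the module, from lists of related functions, were counted in the same way. Their counts are read against the same shares of all features, 15.1% lower and 16.3% higher in Huh7 and 15.5% lower and 15.1% higher in HCCLM3. Of 18 tested genes of SREBP processing and sterol sensing, 9 fell and 2 rose in Huh7, and 5 fell and 3 rose in HCCLM3. TMEM97, a sterol-responsive gene, fell in Huh7 and did not pass in HCCLM3, with -0.49 (SE 0.03, edgeR adjusted p = 5.84e-11) in Huh7 and -0.05 (SE 0.03, edgeR adjusted p = 0.251) in HCCLM3. ERLIN2, a scaffold for degradation in the endoplasmic reticulum, rose in both lines, by 0.53 (SE 0.04, edgeR adjusted p = 2.11e-09) in Huh7 and 0.41 (SE 0.05, edgeR adjusted p = 3.81e-07) in HCCLM3. ERLIN1 fell in Huh7 and rose in HCCLM3, with -0.11 (SE 0.04, edgeR adjusted p = 0.0403) in Huh7 and 0.42 (SE 0.05, edgeR adjusted p = 1.65e-07) in HCCLM3. C12orf49, a factor needed for SREBP processing, fell in both lines, with -0.20 (SE 0.04, edgeR adjusted p = 8.86e-04) in Huh7 and -0.37 (SE 0.04, edgeR adjusted p = 8.24e-08) in HCCLM3. NFYB, a subunit of the CCAAT-binding factor NF-Y, fell in Huh7 and did not pass in HCCLM3, with -0.48 (SE 0.06, edgeR adjusted p = 1.66e-06) in Huh7 and -0.15 (SE 0.06, edgeR adjusted p = 0.0642) in HCCLM3.

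In the non-sterol branch of isoprenoid synthesis (17 genes tested), 5 fell and 1 rose in Huh7 (31.4% of all features passed there in either direction), and 6 fell and 1 rose in HCCLM3 (30.6%). NUS1, a subunit of the enzyme that makes dolichol precursors, fell in both lines, with -0.35 (SE 0.04, edgeR adjusted p = 1.31e-06) in Huh7 and -0.25 (SE 0.05, edgeR adjusted p = 2.72e-04) in HCCLM3. SRD5A3, a polyprenol reductase of the dolichol route, also fell in both lines, with -0.22 (SE 0.08, edgeR adjusted p = 0.0339) in Huh7 and -0.52 (SE 0.07, edgeR adjusted p = 4.29e-06) in HCCLM3. PDSS2, which helps make the tail of coenzyme Q, rose in HCCLM3 and did not pass in Huh7, with 0.15 (SE 0.07, edgeR adjusted p = 0.108) in Huh7 and 0.41 (SE 0.07, edgeR adjusted p = 1.43e-04) in HCCLM3. Of 13 other sterol enzymes tested, 5 fell and 1 rose in Huh7 and 5 fell and 3 rose in HCCLM3. LBR, a sterol reductase of the nuclear envelope, fell in both lines, with -0.35 (SE 0.04, edgeR adjusted p = 1.58e-07) in Huh7 and -0.12 (SE 0.04, edgeR adjusted p = 0.0177) in HCCLM3. FAXDC2 likewise fell in both, with -0.20 (SE 0.05, edgeR adjusted p = 0.00347) in Huh7 and -0.55 (SE 0.06, edgeR adjusted p = 3.73e-07) in HCCLM3.

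Of 10 tested genes that handle lipoprotein receptors, 3 fell and 1 rose in Huh7 (31.4% of all features passed there in either direction), and 6 fell and 2 rose in HCCLM3 (30.6%). VLDLR, a receptor for triglyceride-rich lipoproteins, fell in both lines, with -0.54 (SE 0.09, edgeR adjusted p = 3.99e-05) in Huh7 and -0.97 (SE 0.09, edgeR adjusted p = 6.83e-09) in HCCLM3. LIPA, the lysosomal acid lipase, fell in HCCLM3 and did not pass in Huh7, with -0.05 (SE 0.05, edgeR adjusted p = 0.511) in Huh7 and -0.44 (SE 0.05, edgeR adjusted p = 4.52e-07) in HCCLM3. Of 21 tested genes of sterol transport, ester hydrolysis and efflux, 2 fell and 6 rose in Huh7, and 6 fell and 10 rose in HCCLM3. GRAMD1A, which carries cholesterol from the plasma membrane to the endoplasmic reticulum, fell in both, with -0.36 (SE 0.05, edgeR adjusted p = 3.10e-06) in Huh7 and -0.56 (SE 0.04, edgeR adjusted p = 7.90e-10) in HCCLM3. GRAMD1B of the same family rose in both, with 0.93 (SE 0.10, edgeR adjusted p = 2.24e-07) in Huh7 and 0.39 (SE 0.07, edgeR adjusted p = 1.33e-04) in HCCLM3. NCEH1, a hydrolase of cholesteryl esters, fell in HCCLM3 and did not pass in Huh7, with 0.13 (SE 0.06, edgeR adjusted p = 0.134) in Huh7 and -0.65 (SE 0.06, edgeR adjusted p = 2.04e-08) in HCCLM3. CES1, a liver carboxylesterase, rose in both lines, with 0.25 (SE 0.05, edgeR adjusted p = 8.06e-04) in Huh7 and 0.40 (SE 0.04, edgeR adjusted p = 9.50e-09) in HCCLM3.

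The 3′ UTRs were also read for TTATACC and TATACCA, 2 seven-base sequences taken from earlier results of these data. Over the longest annotated 3′ UTR in GENCODE 29 (GRCh38), 3 of the 28 members (10.7%) held one of them. Of 13017 tested genes with a UTR and a group mean above a minimum level, 1782 did (13.7%). The sites are shown because the 3 members differed in direction. Capitals mark the match, and the strand is that of the transcript.
NSDHL: gcagcttcataTTATACCgatttgttctc
INSIG2: gaaatggtagaTATACCAacaaaacttca
NPC2: ttgacacaatcTTATACCAccaagcatgct
They lie at chrX:152869331-152869359 on the plus strand for NSDHL, chr2:118108372-118108400 on the plus strand for INSIG2 and chr14:74479727-74479756 on the minus strand for NPC2. NSDHL fell in both lines, NPC2 rose in both, and INSIG2 passed in neither. Over these 13017 genes, the median log2 fold change was -0.06 with a site and 0.02 without one in Huh7, and -0.08 and 0.01 in HCCLM3. Because the 2 sequences were taken from earlier results of these same data, these medians are no independent test, and no conclusion is drawn from them.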

How the data were processed

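mRNA was sequenced in 12 libraries in 4 groups of 3, by line and siRNA. Per the labels' protocols, RNA came from a column kit and went into SMARTer mRNA libraries. The deposited table holds raw counts per gene, per the file headers, and the deposited FPKM were scaled by the authors for length and depth and were used for levels between genes and as an alternative. The aligner, counting tool, annotation and use of strand are not given in sources used here. Besides the members named above for an overlap or antisense gene, others overlap an annotated gene on the opposite strand. They are HMGCS1, IDI1, FDPS, FDFT1, LSS, CYP51A1, DHCR7 and SCAP, and their reads carry the same uncertainty. On their own strand, CYP51A1, TM7SF2, EBP, SREBF2, NPC1, NPC2 and MYLIP overlap another annotated gene. How reads in those overlaps were assigned is not given. Per the submitters' processing notes the builds hg38, GRCm38 and mm10 were named, without a role. The table holds 1938 counts of 1 but 6826 of 2, so the lowest counts are uncertain.

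Counts were tested with edgeR 4.0.16 in R 4.3.3 on all 12 libraries (filterByExpr with a minimum count of 10, TMM, robust estimation in the quasi-likelihood fit, 8 residual degrees of freedom, Benjamini-Hochberg over 16946 features, threshold 0.05). limma 3.58.1 on log2(FPKM + 0.1) or log2(FPKM + 1), DESeq2 1.42.0, other filters, fits of 1 line and leaving out each library were alternatives. Replicates differed by more than sampling noise (chi-square per degree of freedom 3.76 to 8.06), so none was treated as a duplicate.

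The members and lists were chosen with earlier results of these data known. Values per library are given for members called with an absolute log2 change of at least 0.4, and for SREBF2, SCAP, INSIG1, INSIG2, SOAT1, SOAT2 and MYLIP. They are also given for NPC2, which this rule does not cover and which rose in both lines. Of each other list at most 3 genes per line, those with the smallest p, are named, and some genes this covers are not reported here. Promoters came from RefSeq (GRCh38.p14, 24 of 28 members matched) and 3′ UTRs from GENCODE 29.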

Additional observations from a re-analysis of the deposited data

Results flagged for a closer look

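For 11 members the knockdown effect differed between the lines in edgeR's interaction test, given as the log2 fold change in HCCLM3 minus that in Huh7. Among the synthesis enzymes this difference was -0.24 for HMGCS1, -0.35 for IDI1, -0.33 for FDPS, -0.30 for SQLE and -0.30 for CYP51A1. It was -0.33 for MSMO1, -0.54 for HSD17B7 and -0.45 for SC5D. The transport genes STARD4 and NPC1 had -0.33 and -0.42. ACAT2 alone had a positive difference, 0.24; it fell in Huh7 and did not pass in HCCLM3. SQLE, CYP51A1, HMGCS1, IDI1, MSMO1, HSD17B7, STARD4 and NPC1 fell in both lines, so that for them the lines differ in the size of the fall. With 3 libraries a group, single libraries were not screened for extreme values.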

How the results depend on the processing

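No member that passed the test changed direction under any alternative run. With limma on log2(FPKM + 0.1), on log2(FPKM + 1) and on log2(FPKM + 0.1) over all genes above 0, 7 members passed the test of the difference between the lines, against 11 with edgeR. For the genes of the other lists that count was 26 with edgeR, 15 with limma on log2(FPKM + 0.1), 20 on log2(FPKM + 1) and 13 over all genes above 0. Over all features it was 3538 of 16946 with edgeR and 2872 of 16946 with limma on log2(FPKM + 0.1). It was 3497 of 16946 on log2(FPKM + 1) and 2658 of 21377 over all genes above 0. Leaving out each library gave 16 to 18 members called in Huh7, 18 to 19 in HCCLM3, 10 to 12 for the difference and 27 for the baseline. Of 17175 to 17239 features tested, these runs called 4453 to 4822 in Huh7 and 4281 to 4435 in HCCLM3. They called 3047 to 3347 for the difference and 14270 to 14318 for the baseline. The main fit called 5314, 5182, 3538 and 14445 of 16946 in that order. Deviations of libraries with the same replicate number correlated at -0.03 to 0.04 in Huh7 and 0.000787 to 0.01 in HCCLM3. Not every library correlated best with its own number. No pairing by number was thus seen, but whether libraries were prepared in pairs is not stated. A block on the replicate numbers gave 18 members called in Huh7, 21 in HCCLM3, 11 for the difference and 27 for the baseline. Over all 16946 features the block gave 5349, 5215, 3533 and 14424 calls in that order. With it INSIG2 passed in both lines (edgeR adjusted p = 0.0301 for Huh7, 0.00661 for HCCLM3), MYLIP passed in Huh7 (edgeR adjusted p = 0.0408), and no other member's call changed. At this depth SOAT2 could not be compared between siRNAs in HCCLM3.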
